A study of Mus musculus with 6 samples.

Results

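The cytosolic ribosome is built from a small and a large subunit, and the proteins of each are named Rps and Rpl. The microarrays described here carried 80 probes for 61 genes of these proteins, out of 34967 gene probes and 18069 named genes in all. A probe was taken when the platform annotation gives it a single gene symbol in the form of a cytosolic ribosomal protein name. No expression value entered this rule, but the rule was set with earlier results of these data known. Of the 80 probes, 22 belong to 19 small subunit genes and 51 to 37 large subunit genes. The other 7 probes belong to 5 genes that are second copies (paralogs) of standard members. A further 11 probes carry such a symbol among several symbols and were not named from it.

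The arrays measured RNA of neurospheres, floating clusters of neural precursor cells, from C57BL/6 mouse fetuses. All 6 cultures came from the dorsal telencephalon at embryonic day 12.5. Their serum-free DMEM/F12 medium held bFGF at 20 ng/ml, EGF at 20 ng/ml, LIF at 0.15 ng/ml, ITS-X supplement, heparin and progesterone. The 3 control cultures received a 2'-O-methyl modified nonsense oligonucleotide named for EGFP, and the 3 anti-miR-335 cultures received the antisense reagent against the microRNA miR-335. The labels give the duration of this treatment as 24 with no unit, do not say which arm of the microRNA was targeted, and call the replicates independent without saying what was repeated. The p-values therefore measure the spread between these samples, which may be technical.

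Ribosomal proteins are made in nearly equal amounts, and their mRNAs are among the most abundant of a growing cell. Most of these mRNAs begin with a C followed by a run of pyrimidines (the TOP motif), through which mTOR signalling controls their translation together. A microRNA pairs with a target mainly through bases 2 to 8 of its mature strand, the seed, and an antisense oligonucleotide blocks it by pairing with it. The comparison asks how blocking miR-335 bears on the levels of these mRNAs.

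The mature strands of the microRNA are shown because they are what the antisense reagent could act on. Both are from RefSeq, on build GRCm38.p6, plus strand, with the seed in capitals. The first lies at chr6:30741314-30741336 and the second at chr6:30741354-30741375.
mmu-miR-335-5p: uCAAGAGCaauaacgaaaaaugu
mmu-miR-335-3p: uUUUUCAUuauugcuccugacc

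The sequences around the RefSeq start of transcription of 5 members are shown because the TOP motif described above is defined at the start of the mRNA. Each runs from 15 bases before to 15 bases after the start, 5′ to 3′ on the gene's strand, and the capitals mark each C followed by at least 4 further C or T. Such runs are marked anywhere in the window, so the capitals alone do not place a TOP motif at the start. On build GRCm38.p6 they lie at chr2:39005117-39005146 (minus strand, Rpl35), chr7:141447636-141447665 (plus, Rplp2), chr9:120571502-120571531 (plus, Rpl14), chr12:28635939-28635968 (minus, Rps7) and chr9:120127751-120127780 (plus, Rpsa).
Rpl35: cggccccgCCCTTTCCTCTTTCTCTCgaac
Rplp2: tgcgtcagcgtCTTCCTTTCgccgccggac
Rpl14: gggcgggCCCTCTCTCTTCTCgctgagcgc
Rps7: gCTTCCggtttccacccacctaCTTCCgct
Rpsa: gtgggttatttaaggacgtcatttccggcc

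RefSeq promoter entries were found for 49 of the 61 genes, with 60 start windows in all. Such a tract lay on the transcribed strand in 34 of the 60 windows (56.7%), against 36.4% of the 32851 windows of all genes. On the other strand the share was 25.0% for the members and 40.8% for all genes. The letters CTTTC on either strand, which overlap such tracts, occurred in 25.0% of the member windows and 7.57% of all windows. In the 300 bases from 250 before to 50 after the start, CCGGAAG on either strand, the core of ETS factor sites, was found in 36.7% of member windows and 8.86% of all. AAGATGGC on either strand, the core of the YY1 motif, was found in 11.7% and 2.75%, and in 0 member windows did it share bases with CCGGAAG. Among the 5 starts shown, Rpsa has no tract, and the other 4 have at least 1. These counts describe the sequences and carry no statement about binding or translation.

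Each intensity below is a multiple of the median of its array, and means are given ± SD with n = 3 per group. Probes of one gene are numbered from the brightest, and levels of different probes are not compared with each other. The background limit of an array was set at the median of its negative control spots plus 3 scaled median absolute deviations, and it lay between 0.492 and 0.692. By this limit 72 of the 80 ribosomal protein probes, of 58 genes, were above background on at least 3 of the 6 arrays, and 68 were above it on all 6. The remaining 8 were above it on fewer than 3 arrays.

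Some differences between arrays followed the groups and others did not. The positive control spots had their lowest median, 3.49, on control replicate 1 and reached 5.19 on another control array, while the share of gene probes above background ran from 59.9% to 67.3%. Of the 9 neural precursor markers 8 were above background, and their summed intensity was 281 to 309 in the controls and 320 to 354 in the anti-miR-335 arrays, without overlap. This sum rests mostly on the brightest markers, such as Fabp7, at 84.5 to 100 in the controls and 108 to 113 in the anti-miR-335 arrays. Hes5 was also without overlap, at 2.10 to 2.89 in the controls and 4.39 to 4.52 in the anti-miR-335 arrays. Not all markers of the list were higher. Nes was at 9.08 to 9.94 in the controls and at 8.24 to 9.50 in the anti-miR-335 arrays. The 5 neuron markers, 4 of them above background, summed to 8.84 to 12.0 and 11.2 to 15.1, and the 4 astrocyte markers, all above background, to 227 to 234 and 216 to 250. All 4 measured oligodendrocyte markers were above background, and a pair of arrays stood apart in them. Olig1 was at 1.93 in control replicate 1, at 1.61 in anti-miR-335 replicate 3 and between 18.6 and 26.8 elsewhere. Olig2 was likewise low on those arrays, at 0.515 and 0.394 against 1.35 to 1.72. Results are given below also without these arrays, a choice made after their values were seen. Of the markers of cells from outside the neural lineage, 1 of 4 for microglia, 2 of 5 for endothelium, 0 of 2 for erythroid cells and 1 of 5 for mesenchyme were above background. The microglia sums, of which only Cx3cr1 was above background on most arrays, were 1.32 to 1.87 in the controls and 1.94 to 2.25 in the anti-miR-335 arrays. The defining markers Ptprc, Pecam1, Cdh5 and Col1a1 were above it on no array. None of the markers in these lists passed the limma test described below. The part of these marker differences in the values below was not tested. In cultures measured in bulk, fewer cells of a type and less RNA per cell cannot be told apart.

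None of the ribosomal protein genes passed the test between anti-miR-335 and control cultures, and the family as a whole lay close to no difference. By limma, 0 of the 80 probes had an adjusted p below 0.05, beside 0 of all 34847 probes tested (0%). The smallest adjusted p of a member was 0.394. At an unadjusted p below 0.05 there were 8 member probes, beside 3162 of all probes (9.07%). Of these, 7 were higher with anti-miR-335, beside 4.91% of all probes, and 1 was lower, beside 4.17%. Among probes above background there were 5 of 72, beside 2418 of 21956 (11.0%). The values of the groups did not overlap for 14 of the 79 members with 6 values, beside 14.7% of all probes. Above background the members' count was 11 of 71, beside 17.3%. The members' share at an unadjusted p below 0.05 was thus 8.75% for higher and 1.25% for lower, and 6.94% in either direction above background. Of the 7 higher probes, 5 were dim in the controls and are described further on.

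The median log2 difference, anti-miR-335 minus control, was -0.01 over the 72 ribosomal protein probes above background, of which 33 were positive and 39 negative. Over all gene probes above background it was 0.03. Over all 80 members it was -0.00 and over all gene probes 0.01. The small subunit probes had a median of -0.01, with 10 positive and 12 negative, and the large subunit probes one of -0.00, with 25 positive and 26 negative. The 7 paralog probes had a median of 0.07.

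**Figure D1:**
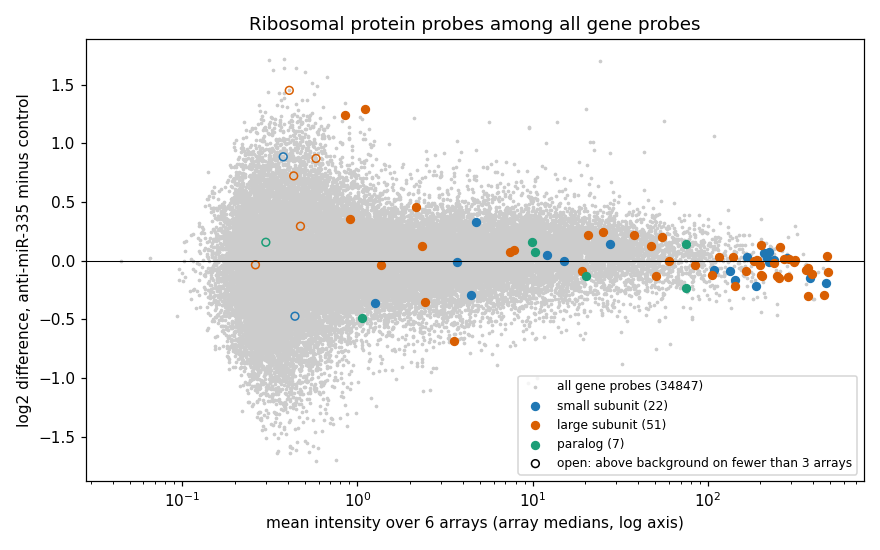
The log2 difference of each probe (vertical axis, anti-miR-335 minus control) against its mean intensity over the 6 arrays (horizontal log axis, in array medians), with small subunit, large subunit and paralog probes in colour over the 34847 gene probes in grey. Most bright member probes lie close to the line of no difference, and the widest differences are those of dim probes, with open circles for the 8 above background on fewer than 3 arrays.

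The spread between replicates sets what these arrays could show. For 61 of the 72 probes above background, the 95% interval of the difference lay within 1.5-fold either way, and for 68 it lay within 2-fold. Among all 21956 probes above background the first count was 12330. The median SD within groups was 0.126 on the log2 scale for the members and 0.187 for all probes above background. Within one range of intensity the values were closer, with 0.114 for members of mean intensity 100 or more beside 0.122 for all probes there, and 0.157 beside 0.177 for means of 1 to 10.

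The arrays were then compared one by one. On control replicates 1, 2 and 3 the median of the 72 probes, as log2 over the mean of the controls, was 0.02, -0.04 and -0.01. On anti-miR-335 replicates 1, 2 and 3 it was -0.03, 0.03 and -0.09. The same medians over all gene probes above background were 0.07, -0.04 and -0.02 in the controls and -0.00, 0.08 and 0.04 in the anti-miR-335 arrays. The third anti-miR-335 array was the lowest for this family and was not low for the probes at large, though the brightest probes of the whole array were also low there, as given below. The groups overlapped. Of the 71 members with 6 values, 24 (33.8%) had their lowest value on that array, beside 13.8% of all probes above background.

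**Figure D2:**
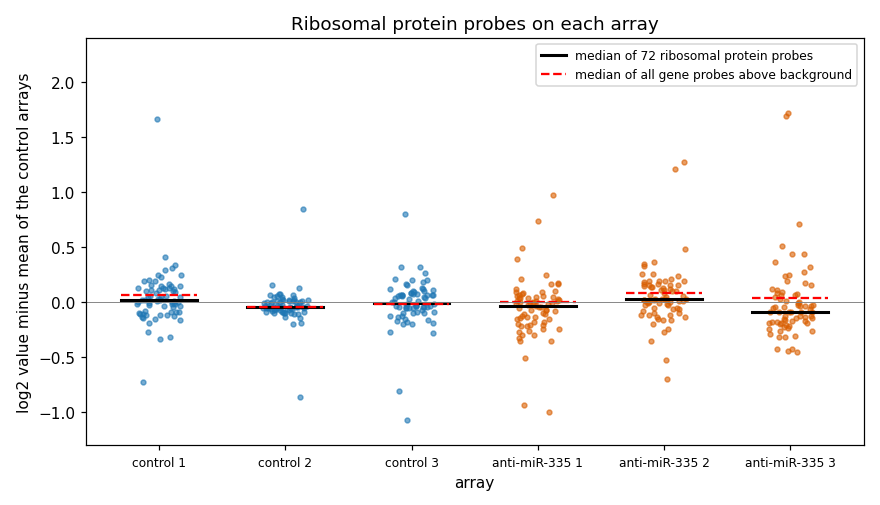
Each point is a ribosomal protein probe above background on at least 3 arrays, as its log2 value minus its mean over the 3 control arrays (vertical axis), for each of the 6 arrays (horizontal axis). Black bars mark the median of the 72 probes, which is lowest on anti-miR-335 replicate 3 (-0.09), and dashed red bars mark the median of all gene probes above background.

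The brightest members were looked at after their values were seen. Of the 250 gene probes with a mean intensity of 100 or more, 40 (16%) were ribosomal protein probes. Their median log2 difference was -0.05, with 25 of 40 negative, and that of all 250 was 0.01. On anti-miR-335 replicate 3 the 40 probes had a median of -0.15 over the control mean, beside -0.07 for all 250, and 22 of the 40 (55%) had their lowest value there, beside 32.7%. Under quantile normalization, which gives every array the same distribution, the median difference of the 40 was 0.01, with 21 positive and 19 negative, so its direction turned with the scaling. The median of the 40 was -0.02 without anti-miR-335 replicate 3, -0.09 without anti-miR-335 replicate 2 and -0.12, with 36 of 40 negative, without both replicate 2 arrays. The median of all probes in this range moved the same way, to 0.04, -0.04 and -0.07 in these fits. Without control replicate 1 and anti-miR-335 replicate 3 the median was -0.00 for the 40 and 0.06 for all probes in this range.

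The scanner records of the replicate 1 arrays mark 5 spots as saturated on each, of which 3 were ribosomal protein probes. On the control array these were Rpl19, Rps14 and Rpl41, and on the anti-miR-335 array the brightest Rpl27a probe, Rps14 and Rpl41. The values of these spots are lower limits. The flags of the other 4 arrays were not used here.

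In the small subunit the probes of smallest p were those of Rps7 and Rpsa. Rps7, a protein that also binds the p53 regulator Mdm2, had intensities of 4.54, 4.08 and 4.07 in the controls and 5.53, 4.73 and 5.71 in the anti-miR-335 arrays. All 3 anti-miR-335 values were above every control value. The log2 difference was 0.33 ± 0.12 (SE), and it did not pass the test (limma adjusted p = 0.491). Rpsa, a small subunit protein also known as the laminin receptor, went the other way, with 4.54, 4.89 and 5.24 in the controls and 3.82, 4.04 and 4.08 in the anti-miR-335 arrays. Here every control value was the higher. The log2 difference was -0.30 ± 0.11 (SE; limma adjusted p = 0.498).

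Rps20, a protein of the head of the small subunit, is measured by a pair of probes. The brighter, probe 1, read 190, 211 and 207 in the controls and 164, 181 and 178 in the anti-miR-335 arrays. Probe 2 read 1.44, 1.42 and 1.38 in the controls and 1.17, 0.981 and 1.16 in the anti-miR-335 arrays. On both probes the groups did not overlap and the anti-miR-335 arrays were the lower. The log2 differences were -0.22 ± 0.13 and -0.36 ± 0.17 (SE), with limma adjusted p = 0.656 and 0.576.

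In the large subunit the higher values came with Rpl14, Rpl31, Rpl38, probes 1 and 2 of Rpl17 and probe 3 of Rpl27a. Rpl14 had intensities of 24.4, 23.2 and 21.5 in the controls and 24.2, 29.2 and 28.7 in the anti-miR-335 arrays. Replicate 1 of the anti-miR-335 arrays lay inside the control range, and the other two lay above it. The log2 difference was 0.25 ± 0.11 (SE; limma adjusted p = 0.550). Rpl38, which has been linked to the translation of Hox mRNAs in the embryo, read 51.8, 51.5 and 49.8 in the controls and 52.4, 63.9 and 60.4 in the anti-miR-335 arrays. The groups did not overlap, but the first anti-miR-335 array stood close to the controls. The log2 difference was 0.20 ± 0.11 (SE; limma adjusted p = 0.628). Rpl31, a protein near the exit of the peptide tunnel, read 41.5, 33.5 and 30.9 in the controls and 39.5, 40.1 and 42.4 in the anti-miR-335 arrays. Control replicate 1 was as high as the anti-miR-335 arrays, and the difference was 0.22 ± 0.12 (SE; limma adjusted p = 0.643). It was 0.34 without control replicate 1 and 0.12 without control replicate 3.

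Lower values came with Rpl36al, Rpl35, Rpl7a and Rpl19. Rpl36al, a paralog of Rpl36a, read 83.5, 77.5 and 81.6 in the controls and 69.6, 72.3 and 65.0 in the anti-miR-335 arrays. The groups did not overlap, and the log2 difference was -0.23 ± 0.11 (SE; limma adjusted p = 0.568). The standard copy Rpl36a differed by 0.12 ± 0.15. Rpl35, which also sits at the tunnel exit, read 447, 409 and 373 in the controls and 320, 376 and 304 in the anti-miR-335 arrays on probe 1. The highest anti-miR-335 value was just above the lowest control value, and the difference was -0.30 ± 0.16 (SE; limma adjusted p = 0.615). It was -0.17 without control replicate 1 and anti-miR-335 replicate 3. Its probe 2 was above background on no array.

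Rpl19, which takes part in a bridge between the subunits, read 550, 438 and 527 in the controls, the first of them saturated, and 409, 457 and 370 in the anti-miR-335 arrays. The groups overlapped, and the log2 difference was -0.29 ± 0.17 (SE; limma adjusted p = 0.647). It was -0.15 under quantile normalization, and -0.15 without control replicate 1 and anti-miR-335 replicate 3. Rpl7a had no value on control replicate 1, where its spot carried the flag C, and read 2.84 and 2.76 on the other control arrays. The anti-miR-335 arrays read 1.97, 2.62 and 2.04, all lower, and the difference was -0.35 ± 0.18 (SE; limma adjusted p = 0.594) with n = 2 in the controls.

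**Figure D3:**
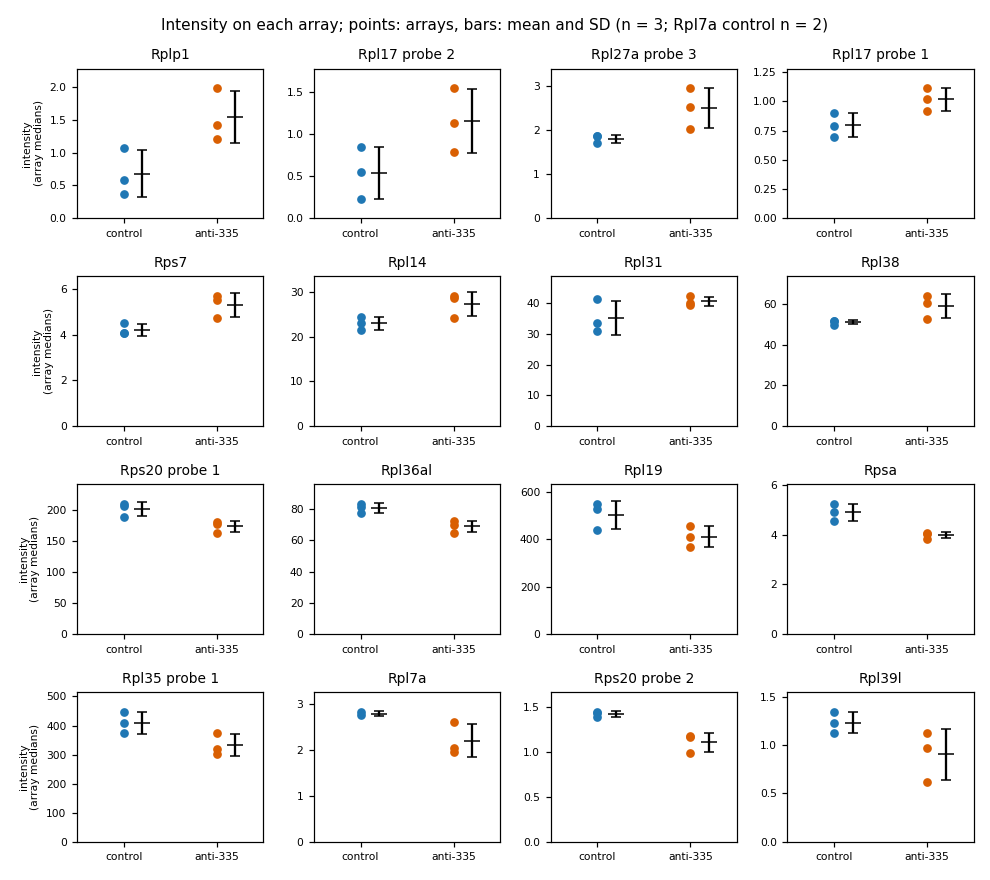
Intensity in array medians (vertical axes, linear and starting at 0) on each control and anti-miR-335 array for 16 probes above background, the 8 of smallest unadjusted p in each direction; points are arrays and bars give the mean and SD. The groups separate for Rps7, Rpsa, Rps20, Rpl36al, Rplp1, Rpl38, Rpl17 probe 1 and Rpl27a probe 3, and for Rpl7a on the values it has. They overlap for Rpl14, Rpl31, Rpl35 probe 1, Rpl19, Rpl17 probe 2 and Rpl39l.

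The stalk of the large subunit, which recruits the elongation factors, is formed by Rplp0 and the acidic proteins Rplp1 and Rplp2. Rplp0 read 350, 378 and 392 in the controls and 368, 358 and 331 in the anti-miR-335 arrays, with means of 373 ± 21.4 and 352 ± 19.2. The groups overlapped, and the log2 difference of -0.08 ± 0.15 (SE) turned to 0.02 under quantile normalization. Rplp2 read 300, 261 and 339 in the controls and 261, 299 and 256 in the anti-miR-335 arrays, with overlap and a log2 difference of -0.14 ± 0.16 (SE). This was -0.05 without control replicate 3 and -0.23 without control replicate 2, and leaving out anti-miR-335 replicate 2 gave -0.21. The Rplp1 probe was dim, at 0.372, 0.585 and 1.08 in the controls and 1.21, 1.43 and 1.99 in the anti-miR-335 arrays. It was above background on 1 of 3 control arrays and on all 3 anti-miR-335 arrays, and all 3 anti-miR-335 values were above every control value. The log2 difference was 1.29 ± 0.36 (SE; limma adjusted p = 0.414), with the control values of replicates 1 and 2 under the background limit. It was 0.73 without control replicate 1 and anti-miR-335 replicate 3.

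Low signal was common among the members of smallest p. Of the 8 member probes with an unadjusted p below 0.05, 3 were below the limit on every control array (Rpl29 probe 2, Rpl34 and Rps13 probe 2) and 2 were above it on a single control array (Rplp1 and Rpl17 probe 2). Only Rps7, Rpsa and Rpl27a probe 3 were above it on all 6 arrays. Where every array of a group is below background only a bound on the fold can be given. For it, each value of that group was replaced by the lowest intensity over the limit on that array unless it was higher itself. The values of the other group were kept as measured. By this rule Rpl34 was 1.14-fold higher in the anti-miR-335 arrays, with means of 0.737 ± 0.0717 against 0.423 ± 0.156 in the controls. It was above background on 2 of 3 anti-miR-335 arrays. Its value on anti-miR-335 replicate 1, 0.667, was under the limit of 0.692 there, so the 1.14 is not a strict bound. The difference of Rpl34 did not pass the test (limma adjusted p = 0.494). Rpl29 probe 2 (0.605 ± 0.0988 against 0.212 ± 0.0758), Rps13 probe 2, Rpl5 probe 3, Rpl17 probe 3 and Rps2 allowed no bound above 1. Rpl3l, a paralog best known from muscle, and Rpl35 probe 2 were above background on no array. The background limit was itself lowest on anti-miR-335 replicates 3 and 2, at 0.492 and 0.563.

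There were 13 genes with more than 1 probe, 7 with 2 and 6 with 3. For 10 of them at least 2 probes were above background, and in all 10 the 95% intervals of these probes overlapped. The differences were widest apart for Rpl17 and Rpl27a. For Rpl27a, probe 3 read 1.86, 1.86 and 1.70 in the controls and 2.03, 2.53 and 2.95 in the anti-miR-335 arrays. Its groups did not overlap, and the log2 difference was 0.45 ± 0.17 (SE; limma adjusted p = 0.491). Probe 1, which was saturated on anti-miR-335 replicate 1 and so has only a lower limit there, had a difference of 0.04 ± 0.16. Probe 2 had one of -0.13 ± 0.11, and the interval of probe 2, from -0.38 to 0.12, barely met that of probe 3, from 0.08 to 0.82. For Rpl17 the differences were 0.36 ± 0.21 on probe 1, where the groups did not overlap, and 1.24 ± 0.45 on probe 2, which was above background on 1 of 3 control arrays. Without control replicate 3, whose value of 0.223 was the lowest, the difference of Rpl17 probe 2 was 0.71.

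Other genes had probes that lay closer together. Rpl4 had -0.13 ± 0.14 and -0.09 ± 0.13, Rpl22 had -0.02 ± 0.14, -0.00 ± 0.14 and 0.12 ± 0.12, and Rpl7 had -0.01 ± 0.14, 0.13 ± 0.17 and -0.04 ± 0.11. Rpl11 had 0.01 ± 0.16 and -0.09 ± 0.10, and Rps4x, the X-linked copy of Rps4, had -0.09 ± 0.12 and 0.14 ± 0.16. The Rps4x differences were -0.04 and 0.35 without control replicate 1. The brighter probes of Rps13 and Rpl29 had -0.01 ± 0.09 and 0.12 ± 0.17. Ribosomal protein genes have many processed pseudogenes of nearly the same sequence, so a probe's signal may not come from the named gene alone. The part of this in the values was not tested.

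**Figure D4:**
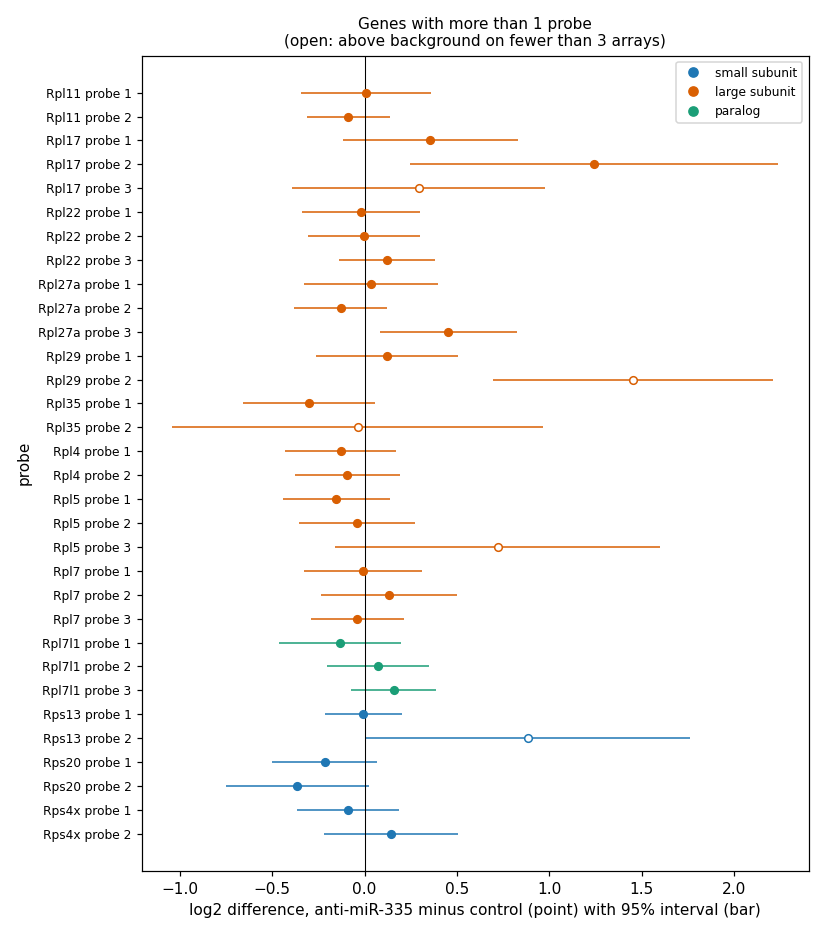
The log2 difference (horizontal axis, anti-miR-335 minus control; points) with its 95% interval (bars) for every probe of the 13 genes with more than 1 probe, open where the probe was above background on fewer than 3 arrays. Among filled points, the intervals of Rpl27a probe 3 and Rpl17 probe 2 leave out 0 and those of the brightest probe of the same genes do not; Rpl27a probe 1 was saturated on 1 anti-miR-335 array.

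Members that signal to p53 by binding Mdm2 when ribosome assembly is disturbed include the 4 listed here, Rpl5, Rpl11, Rpl23 and Rps7, with 7 probes. None of the 7 passed the test. Apart from Rps7 and the dim Rpl5 probe 3, the differences ran from -0.15 to 0.01. Rpl5 probe 1 read 274, 274 and 263 in the controls and 247, 243 and 240 in the anti-miR-335 arrays. These groups did not overlap, while those of Rpl5 probe 2 did, and the log2 differences were -0.15 ± 0.13 and -0.04 ± 0.14 (SE). Rpl23 read 319 on control replicate 1 and 227 to 247 in the anti-miR-335 arrays, with the other control values, 233 and 229, inside that range.

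Genes whose human counterparts are mutated in Diamond-Blackfan anaemia, a failure of red cell formation, were measured for 8 of the 10 listed. None passed the test, and 3 were positive and 5 negative. The list leaves out Rpl5, Rpl11 and Rps7, which are also known from this disease and are given above. Rps19, the gene most often mutated, read 253, 231 and 228 in the controls and 223, 271 and 222 in the anti-miR-335 arrays. The anti-miR-335 values lay on both sides of the controls, and the log2 difference was 0.01 ± 0.14 (SE). Apart from Rpl26, the others had log2 differences below their errors or near them in size: Rps24 (0.05 ± 0.12), Rps10 (0.03 ± 0.15), Rpl15 (-0.04 ± 0.17), Rps29 (-0.08 ± 0.13), Rpl35a (-0.12 ± 0.12) and Rps26 (-0.16 ± 0.13).

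Rpl26, which binds the p53 mRNA as well as the ribosome, had the most uneven set of values. It read 11.0 on control replicate 1 against 1.91 and 1.98 on the other control arrays, and 1.81, 2.14 and 2.59 in the anti-miR-335 arrays. The high value stands alone on the array with the dimmest positive control spots. In the scanner record that spot had a median of 748, against 177 on anti-miR-335 replicate 1, with local background medians of 55 and 58, and both spots carried the software's flag G. The log2 difference was -0.69 ± 0.54 (SE) over all arrays and 0.15 ± 0.17 without control replicate 1, so its direction turned with that single array.

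Rpl13a, Rps18 and Rpl32 are widely used as reference genes for measuring mRNA. Rpl13a read 20.7, 19.0 and 17.8 in the controls and 18.6, 22.8 and 25.9 in the anti-miR-335 arrays, with overlap. Its log2 difference was 0.22 ± 0.13 (SE), with a 95% interval from -0.07 to 0.51. Rps18 and Rpl32 had differences of 0.02 ± 0.13 and 0.01 ± 0.14, with intervals from -0.27 to 0.32 and from -0.30 to 0.33. Among paralogs, Rpl39l, a copy of Rpl39 known from the testis, read 1.23, 1.34 and 1.13 in the controls and 0.617, 0.966 and 1.13 in the anti-miR-335 arrays. One of its anti-miR-335 arrays was below background, and the difference was -0.49 ± 0.25 (SE; limma adjusted p = 0.597), beside 0.03 ± 0.15 for Rpl39. Without anti-miR-335 replicate 1 the difference of Rpl39l was -0.24. The p53 target Rps27l had a difference of 0.14 ± 0.13, and the 3 probes of Rpl7l1 had -0.13, 0.07 and 0.16.

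Control replicate 1 decided how many probes of the array at large passed the test. Without it, 1100 of 34654 probes passed (3.17%), and 0 of the 80 ribosomal protein probes did. In that fit 4.97% of the probes above background passed, but of those with a mean intensity of 100 or more only 1 of 250 (0.4%) did, the range that holds 40 of the members. Without control replicate 1 the limma adjusted p was 0.0944 for Rps7, 0.0900 for Rpsa and 0.0810 for Rps4x probe 2. It was 0.0804 for Rpl31 and 0.0655 for Rpl29 probe 2, the smallest among the members. Without both replicate 1 arrays 4.57% of all probes passed, and again 0 members. Without control replicate 1 and anti-miR-335 replicate 3, which were low in Olig1, 6 of 34430 probes passed (0.0174%), and 0 members. With arrays weighted by how well they fitted, 474 of all probes passed, and 1 member did, Rpl29 probe 2 (limma adjusted p = 0.0431), which was above background on 1 array of 6.

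The wider machinery of translation was read from 5 lists of genes, and 0 members of these passed in either direction by limma. Each gene was represented here by its brightest probe. At an unadjusted p below 0.05 there were 2 of 32 genes of initiation, 3 of 12 of elongation, 4 of 42 of biogenesis, 0 of 15 of TOP control and 3 of 7 of the last list. The share was 9.07% over all probes and 11.0% over those above background, as most of the list genes were. Of the genes for translation initiation, 32 of 39 were measured, with a median log2 difference of 0.06 and 20 positive. All 12 genes of elongation and termination were measured, with a median of 0.13 and 10 positive. Ribosome biogenesis had 42 of 46 measured, a median of 0.07 and 29 positive. TOP mRNA control and mTOR signalling had 15 of 18 measured, a median of 0.05 and 13 positive. The ubiquitin-fused and other ribosome-associated genes had 7 of 11 measured, a median of -0.04 and 3 positive. All gene probes above background had a median of 0.03, with 12219 of 21956 positive. Those with a mean intensity of 10 to 100 had a median of 0.07, with 2753 of 4266 positive.

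Eef1a1, the factor that brings aminoacyl-tRNA to the ribosome, read 9.06, 6.50 and 6.70 in the controls and 9.91, 10.6 and 13.2 in the anti-miR-335 arrays. The groups did not overlap, with control replicate 1 nearest to the anti-miR-335 arrays, and the log2 difference was 0.61 ± 0.15 (SE; limma adjusted p = 0.410). Polr1e, a subunit of RNA polymerase I, which transcribes the ribosomal RNA genes, read 4.61, 4.28 and 4.33 in the controls and 5.70, 6.80 and 6.15 in the anti-miR-335 arrays. These groups were also apart, and the difference was 0.49 ± 0.11 (SE; limma adjusted p = 0.384). Polr1a, the largest subunit of the same enzyme, read 8.42, 7.15 and 7.40 in the controls and 5.43, 6.66 and 5.86 in the anti-miR-335 arrays. It thus went the other way, without overlap, by -0.36 ± 0.12 (SE; limma adjusted p = 0.467).

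Of the other genes of smallest p, Naca, which guards the nascent peptide at the ribosome, had 231 ± 28.2 in the controls and 170 ± 12.2 in the anti-miR-335 arrays, a log2 difference of -0.44 ± 0.14 (limma adjusted p = 0.460). The initiation factors Eif4g2 and Eif2b1 had log2 differences of 0.55 ± 0.18 and 0.25 ± 0.09 (SE). Eef1e1, which belongs to the tRNA synthetase complex, had one of 0.32 ± 0.11, and the p53 regulator Mdm4 one of 0.39 ± 0.14. Rps6kb2, an S6 kinase, and Tsc2, an inhibitor of mTOR signalling, had differences of 0.23 ± 0.14 and 0.25 ± 0.17. Without control replicate 1, 5 probes of the lists passed, all higher in the anti-miR-335 arrays. That is 3.70% of the 135 list probes, beside 3.17% of all probes and 4.97% of those above background, as most of the list genes were. They were those of Eif4g2 (limma adjusted p = 0.0228), Eef1a1 (0.0227), Polr1e (0.0326), Tsc2 (0.0365) and Tial1 (0.0193), the last named after its value was seen. Without both control replicate 1 and anti-miR-335 replicate 3, 0 list probes passed.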

How the data were processed

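RNA was measured on 6 single-colour CodeLink mouse arrays, 3 per group. The deposited values are intensities on a linear scale, scaled by the authors to the median of the array, per the labels. CodeLink Expression Analysis 4.1.0.29054 is the software in the file headers. Scanner records were used for the replicate 1 arrays, where 35976 and 36032 values equalled the deposited intensities within 0.0001, row by row. There the raw value was the spot mean less the local background median. No slide or scan batch could be tested. Gene names came from the platform annotation, and all 80 member probes had their gene identifier in the RefSeq gene table, which changed 0 symbols.

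Intensities under the 5th percentile (0.163) were set to that value before log2 transformation. The comparison used limma 3.58.1 (R 4.3.3) with lmFit and eBayes, an intensity trend and no covariates, two-sided. P-values were adjusted by Benjamini-Hochberg over the 34847 gene probes with at least 2 values per group, with a threshold of 0.05. The number of arrays limits the precision. The script was tested on simulated data. Named are the 8 higher and 8 lower member probes above background of smallest p, the gene groups described, genes with several probes, and 2 genes of smallest p per list. The members, lists and rules were chosen with earlier results of these data known. The alternatives were other floors, quantile normalization, another centring, other variance models, array weights, dim probes left out, a replicate block, and each replicate left out.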

Additional observations from a re-analysis of the deposited data

How the results depend on the processing

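The count of all probes past the threshold, 0 in the fit described, was 1 with quantile normalization, 3 when arrays were centred on probes above background, 3 with the trend fitted robustly, and 474 when arrays were weighted. The weights ran from 0.366 (control replicate 1) to 2.25 (control replicate 2). Leaving out arrays gave 0 to 1571 (1100 without control replicate 1, 1571 without both replicate 1 arrays). The count of ribosomal protein probes was 1 with array weights and 0 in every fit that left out arrays. Their median log2 difference then ran from -0.0505 to 0.0341, and from -0.0557 to 0.0128 over those above background. The count over the translation lists was 3 with array weights, where 474 of all probes passed, and 0 to 10 when arrays were left out. The 10, found without both replicate 1 arrays, were 7.46% of 134 list probes, beside 4.57% of all probes. Rplp0 turned to 0.0233 under quantile normalization. Of 18 probes (the 16 of smallest p described, Rplp0 and Rplp2), 17 kept their sign in every alternative that could be fitted (18, and 14 for Rpl7a), and 0 passed the threshold. Rpl26, the dim Rpl29 probe 2 and the list genes are not in that count. Because 16 of the 18 were picked by smallest p in these same arrays, their kept signs carry little weight. Alternatives that change only the variance model cannot turn a sign. Of all members above background, 5 of 72 turned sign without anti-miR-335 replicate 1 and 15 of 71 without both replicate 2 arrays. Without control replicate 1 and anti-miR-335 replicate 3, 18 of 72 did. Without control replicate 1 and anti-miR-335 replicate 3, a setting added after seeing the data, 6 of all probes, 0 members and 0 list probes passed. Same-numbered arrays deviated with correlations of -0.23, 0.04 and -0.26, so the numbers were not read as pairs, and with a replicate block 0 of all probes and 0 members passed. With 3 arrays per group, differences smaller than the intervals given could not be resolved.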
